A study of Mus musculus with 4 samples.

Results

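Activated NK cells of orthotopic CT26 tumors were 540 of the 17674 cells in the deposited table of single cells, or 3.06%. They were chosen by the cluster name that each cell carries in the table (Activated_NK). Cyp51-KO tumors gave 313 of their 10484 cells and sg-Ctrl tumors 227 of their 7190. The table names 2 other clusters of NK cells, Functional_NK_1 with 1414 cells and Functional_NK_2 with 292 cells, which serve here as the reference. The 3 NK clusters together held 2246 cells.

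CT26 is a mouse colon carcinoma line that grows in immunocompetent BALB/c mice. In the Cyp51-KO group the injected tumor cells lacked Cyp51, an enzyme of cholesterol synthesis, through CRISPR editing with a guide on a lentiviral vector that also carried the blue fluorescent protein BFP, and in the sg-Ctrl group they carried a control guide. The NK cells came from the hosts, male BALB/c mice with an intact Cyp51 gene that were 8 to 10 weeks old at injection. The deletion was thus in the tumor cells and not in the cells described here. Tumors were taken at day 26 after orthotopic injection, with 9 tumors in the Cyp51-KO group and 12 in the control group. Bulk CD45+ cells, CD3+ T cells and BFP+ tumor cells were sorted and mixed at 50%, 40% and 10%. Each group had 2 samples in the labels, but the table names only the group of a cell, so each group was treated as 1 pooled sample. Values are therefore given with 95% intervals that take cells as independent draws and cover only the sampling of cells. No test was made between the groups, and the spread between mice or libraries is not known from these data.

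Natural killer (NK) cells are lymphocytes that kill stressed, infected or transformed cells without a rearranged antigen receptor. They release perforin and granzymes into the target cell and secrete cytokines and chemokines such as interferon gamma, Ccl5 and Xcl1, the last of which attracts cross-presenting dendritic cells. In mice they carry the activating receptor NKp46, the product of Ncr1, and in some strains NK1.1, a product of Klrb1c, and signals from activating receptors, cytokines and inhibitory receptors set whether they respond. In tumors, NK cells are found both as strongly cytolytic cells and as cells with a tissue-resident or cytokine-driven profile.

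The table gives no expression value for any gene, so neither Ncr1 nor Klrb1c could be measured in these cells, and the name of the cluster is that of the authors. The genes the authors list as leading the cluster were Xcl1, Cd7, Ncr1, Car2, Ramp1, Txk, Ctsw, Emb, Gzmc and Tyrobp. Among them Ncr1 encodes the NK receptor NKp46, Tyrobp the DAP12 adaptor of activating receptors, Xcl1 a chemokine, Txk a kinase of lymphocyte signaling and Gzmc a granzyme. Klrb1c was not on that list, and neither was a gene of the CD3 complex or of a T cell receptor chain. Only the leading genes are listed, so absence from the list does not show that a gene was not expressed. The list shares Ncr1 and Tyrobp with that of Functional_NK_1, which also has Gzma, Gzmb, Ccl5 and Il2rb, and shares Gzmc and Car2 with that of Functional_NK_2, which is led by granzyme genes and Prf1, the gene of perforin. The clusters were built on the genes of these same cells, so these lists describe how the cells were grouped.

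Across all cells, the median UMI count, which is the number of distinct RNA molecules read from a cell, was 6508.5 in Cyp51-KO tumors and 7822.5 in sg-Ctrl tumors. Cells kept by the authors had 500 to 99951 UMIs, 226 to 6998 detected genes and at most 4.98% of UMIs from mitochondrial genes. Among lymphocytes the gap was wider, with medians of 3898 and 7088 UMIs. All 13 lymphocyte clusters had a lower median in Cyp51-KO tumors. Median UMIs per lymphocyte thus moved with the group, and the part of this difference in the results on activated NK cells was not tested. Between the groups, 98 cell barcodes were shared, 6 activated NK cells carried one of them, and no barcode was an activated NK cell in both groups.

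The first question was how large the activated NK population was in tumors without Cyp51. Activated NK cells made up 5.25% of the 5957 lymphocytes of Cyp51-KO tumors (exact binomial interval 4.70 to 5.85%). In sg-Ctrl tumors they made up 4.37% of 5193 lymphocytes (3.83 to 4.96%). The log2 ratio of Cyp51-KO over sg-Ctrl was 0.27, and setting the opposite bounds of the 2 intervals against each other gave a range of -0.078 to 0.61. The intervals of the groups overlapped. Such a range is wider than a 95% interval of the ratio, and an overlap of separate intervals does not show that the shares were equal. In both groups activated NK cells ranked 7th by size among the 13 lymphocyte clusters. The neighbours in that order were effector CD8+ T cells and Treg cells, at 6.98% (6.35 to 7.66%) and 5.12% (4.57 to 5.71%) in Cyp51-KO tumors, against 4.10% (3.58 to 4.68%) and 5.05% (4.47 to 5.68%) in sg-Ctrl tumors. The interval of activated NK cells overlapped that of Treg cells in both groups and that of effector CD8+ T cells in sg-Ctrl tumors.

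T cells had been added to the mixture by the separate CD3+ sort, so the share was also taken over clusters not named as T cells. Whether these clusters held cells from the CD3+ sort could not be checked without gene values. Within the 3 NK clusters, activated cells were 24.96% of 1254 cells in Cyp51-KO tumors (22.6 to 27.5%), against 22.9% of 992 cells in sg-Ctrl tumors (20.3 to 25.6%). The log2 ratio was 0.13 (range -0.18 to 0.44). Over the CD45+ cells that are not T cells by cluster name, the shares were 9.12% (8.18 to 10.1%) and 9.68% (8.51 to 10.9%). The log2 ratio was -0.085 (range -0.42 to 0.25). Over all immune cells they were 3.96% (3.54 to 4.41%) and 3.55% (3.11 to 4.03%). Over all cells they were 2.99% (2.67 to 3.33%) and 3.16% (2.77 to 3.59%), with a log2 ratio of -0.081. All immune cells and all cells, like lymphocytes, include the added T cells, and all cells also include the sorted tumor cells. Epithelial clusters, which hold the tumor cells, were 24.6% of Cyp51-KO cells and 11.1% of sg-Ctrl cells. The intervals of the groups overlapped with each of these 5 denominators, and the sign of the log2 ratio was positive with 3 of them and negative with 2.

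**Figure D1:**
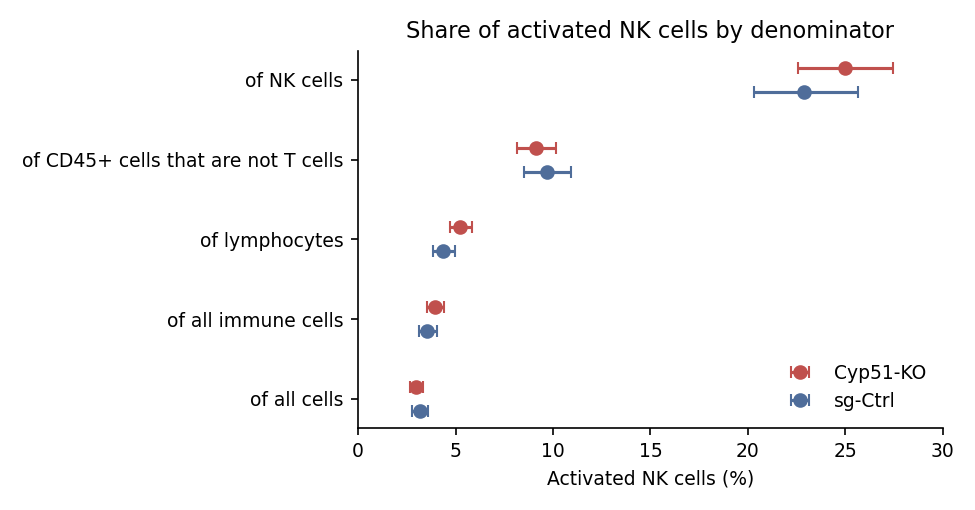
Share of activated NK cells in percent (horizontal axis) over 5 denominators (vertical axis) in Cyp51-KO (red) and sg-Ctrl (blue) tumors. Points are the pooled share of each group and bars are exact 95% binomial intervals, which overlap for each denominator, from 2.99% and 3.16% of all cells to 24.96% and 22.9% of NK cells.

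The functional NK clusters gave other ratios between the groups. Functional_NK_1 cells were 60.4% of NK cells in Cyp51-KO tumors (57.6 to 63.1%), below the 66.2% of sg-Ctrl tumors (63.2 to 69.2%), and the intervals did not overlap. Functional_NK_2 cells were 14.7% (12.8 to 16.8%) and 10.9% (9.02 to 12.99%), with intervals that overlapped. Per Functional_NK_1 cell there were 0.413 activated cells in Cyp51-KO tumors and 0.346 in sg-Ctrl tumors. Per Functional_NK_2 cell there were 1.70 and 2.10. When activated cells were set against Functional_NK_1 alone, they were 29.3% (26.5 to 32.1%) and 25.7% (22.8 to 28.7%) of the pair, and these intervals overlapped. Against Functional_NK_2 alone the order was the other way, at 63.0% (58.6 to 67.2%) and 67.8% (62.5 to 72.7%), again with intervals that overlapped.

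All NK cells together were 36.5% of the CD45+ cells that are not T cells in Cyp51-KO tumors (34.9 to 38.2%), below the 42.3% of sg-Ctrl tumors (40.3 to 44.3%), and the intervals did not overlap. Activated NK cells had the log2 ratio of -0.085 given above over this denominator, beside -0.34 for Functional_NK_1, whose intervals lay apart, and 0.22 for Functional_NK_2, whose intervals overlapped. Whether the activated cells differed from Functional_NK_1 in this ratio was not tested.

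The second question was how much RNA was read from each activated NK cell. The median in Cyp51-KO tumors was 5015 UMIs (exact interval of the median 4550 to 5504, n = 313 cells), with the middle 50% of cells between 3107 and 8006 and single cells from 625 to 37450. In sg-Ctrl tumors the median was 7865 UMIs (7251 to 8251, n = 227 cells), with the middle 50% between 5553.5 and 11253 and single cells from 1287 to 38906. The log2 ratio of the medians was -0.65 (range -0.86 to -0.40), so the intervals lay apart and the cells of Cyp51-KO tumors were lower. The distributions overlapped widely nonetheless. Of the Cyp51-KO cells, 230 of 313 (73.5%) were below the sg-Ctrl median, and 180 of 227 sg-Ctrl cells (79.3%) were above the Cyp51-KO median. In 71.0% of all pairs of 1 cell from each group, the Cyp51-KO cell had fewer UMIs.

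The cells of Cyp51-KO tumors were also spread over a wider range of low values. Below 2000 UMIs lay 25 of 313 Cyp51-KO cells (7.99%, 5.24 to 11.6%) and 1 of 227 sg-Ctrl cells (0.441%, 0.0112 to 2.43%). From 16000 UMIs upward the order turned, with 6 cells (1.92%, 0.707 to 4.13%) and 25 cells (11.0%, 7.26 to 15.8%). The upper quartile over the lower quartile was 1.37 on the log2 scale in Cyp51-KO tumors and 1.02 in sg-Ctrl tumors.

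Lower UMI counts in Cyp51-KO tumors were common to the 3 NK clusters. Functional_NK_1 cells had medians of 3437 UMIs (3251 to 3731) and 6337 UMIs (5906 to 6968), a log2 ratio of -0.88 (range -1.10 to -0.66). Functional_NK_2 cells had 14908 UMIs (13790 to 16801) and 20085.5 UMIs (17821 to 21547), a log2 ratio of -0.43 (range -0.64 to -0.085). Activated NK cells, at -0.65, lay between these values and ranked 6th among the 13 lymphocyte clusters counted from the smallest decrease. Fewer RNA molecules in a cell and fewer molecules captured from it cannot be told apart in these counts.

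**Figure D2:**
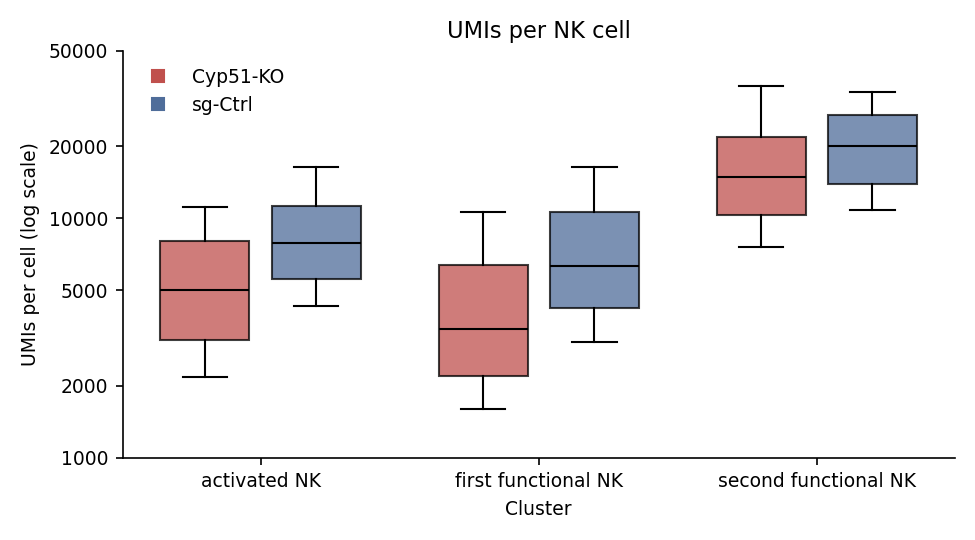
UMIs per cell on a log scale (vertical axis) in activated, first functional (Functional_NK_1) and second functional (Functional_NK_2) NK cells of Cyp51-KO (red) and sg-Ctrl (blue) tumors. Boxes span the middle 50% of cells with a line at the median, and whiskers reach the 10th and 90th percentiles, which for activated cells are 2173.4 and 11090.2 UMIs in Cyp51-KO and 4297 and 16333 UMIs in sg-Ctrl tumors.

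Within each group the 3 NK clusters kept the same order. Activated cells had more UMIs than Functional_NK_1 cells, with a log2 ratio of 0.55 (range 0.29 to 0.76) in Cyp51-KO tumors and 0.31 (range 0.057 to 0.48) in sg-Ctrl tumors. They had fewer than Functional_NK_2 cells, with log2 ratios of -1.57 (range -1.88 to -1.33) and -1.35 (range -1.57 to -1.11). Among the 13 lymphocyte clusters, activated NK cells ranked 6th by median UMIs in both groups. Exhausted CD8+ T cells stood directly above them, with 5496 UMIs (5246 to 5775) and 8568.5 UMIs (8335 to 8798). Directly below stood CD8_HSP+ cells in Cyp51-KO tumors, with 3680 UMIs (2777 to 5120), and Functional_NK_1 cells in sg-Ctrl tumors. The interval of activated NK cells overlapped those of exhausted CD8+ T cells and of CD8_HSP+ cells in Cyp51-KO tumors, and overlapped neither neighbour in sg-Ctrl tumors.

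Summed over cells, the activated NK cluster yielded 1935067 UMIs in Cyp51-KO tumors and 2106976 in sg-Ctrl tumors, so the smaller number of sg-Ctrl cells gave the larger total. These were 21.3% and 21.7% of all UMIs of NK cells. Functional_NK_1 gave 41.5% and 54.7% of NK UMIs, and Functional_NK_2 gave 37.2% and 23.6%.

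Because clusters differed in UMIs per cell, the share of activated cells among NK cells was also taken at a given number of UMIs. In Cyp51-KO tumors it was 14.5% of NK cells with 1000 to 2000 UMIs (23 of 159 cells, 9.40 to 20.9%). It was 24.8% at 2000 to 4000 UMIs (94 of 379, 20.5 to 29.5%) and 35.4% at 4000 to 8000 UMIs (115 of 325, 30.2 to 40.9%). Above that it was 27.5% at 8000 to 16000 UMIs (73 of 265, 22.3 to 33.3%) and 5.61% from 16000 UMIs upward (6 of 107, 2.09 to 11.8%). Activated cells were thus most frequent among NK cells of intermediate UMI counts.

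In sg-Ctrl tumors the share was also highest at intermediate UMI counts, over a higher range. The shares were 5% at 1000 to 2000 UMIs (1 of 20 cells, 0.127 to 24.9%) and 8.21% at 2000 to 4000 UMIs (11 of 134, 4.17 to 14.2%). They were 27.7% at 4000 to 8000 UMIs (105 of 379, 23.3 to 32.5%), 29.3% at 8000 to 16000 UMIs (85 of 290, 24.1 to 34.9%) and 14.9% from 16000 UMIs upward (25 of 168, 9.87 to 21.2%). The intervals lay apart at 2000 to 4000 UMIs and overlapped in the other 4 of these bins.

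When NK cells were instead ranked by UMIs within their own group and cut into quintiles, a comparison chosen after seeing the data, the groups lay closer. From the fewest to the most UMIs, activated cells were 15.2%, 26.7%, 33.9%, 32.3% and 16.7% of NK cells in Cyp51-KO tumors and 11.6%, 25.3%, 35.2%, 26.3% and 16.1% in sg-Ctrl tumors. The intervals overlapped in all 5 quintiles, and the share was highest in the middle quintile of both groups. That quintile covered 3597 to 5982 UMIs in Cyp51-KO tumors and 6245 to 8987 UMIs in sg-Ctrl tumors, so quintiles set cells of different UMI counts side by side. The part of UMI counts in the difference at 2000 to 4000 UMIs was not tested.

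**Figure D3:**
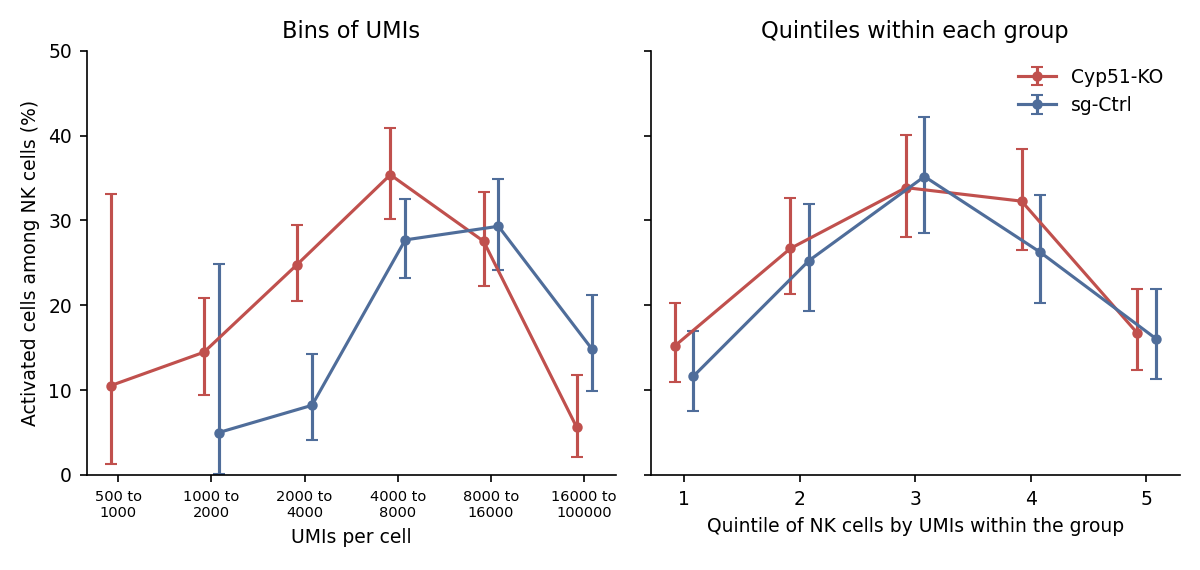
Share of activated cells among NK cells in percent (vertical axes) in bins of UMIs per cell (left) and in quintiles of NK cells ranked by UMIs within each group (right), with exact 95% binomial intervals for Cyp51-KO (red) and sg-Ctrl (blue) tumors. On the left the Cyp51-KO share is highest, 35.4%, at 4000 to 8000 UMIs and the sg-Ctrl share, 29.3%, at 8000 to 16000 UMIs, and on the right both are highest in the middle quintile (33.9% and 35.2%).

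The third question was how many genes were detected per activated NK cell. The median was 1808 genes in Cyp51-KO tumors (1678 to 1918), with the middle 50% of cells between 1329 and 2453. It was 2509 genes in sg-Ctrl tumors (2396 to 2660), with the middle 50% between 2038 and 3123. The log2 ratio was -0.47 (range -0.66 to -0.32). Of the Cyp51-KO cells, 240 of 313 (76.7%) were below the sg-Ctrl median. Functional_NK_1 cells had medians of 1404 and 2280 genes (log2 ratio -0.70), and Functional_NK_2 cells had 3307 and 4104.5 genes (-0.31).

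Detected genes rise with UMIs, so cells of like UMI counts were compared next. At 4000 to 8000 UMIs, 115 Cyp51-KO activated cells had a median of 1924 genes (1859 to 1967) and 105 sg-Ctrl cells had 2073 (2008 to 2230), with median UMIs of 5585 and 5839. At 8000 to 16000 UMIs the medians were 2832 genes (2728 to 2913) and 3005 genes (2875 to 3120), with 10700 and 10289 UMIs. The intervals were apart at 4000 to 8000 UMIs and overlapped at 8000 to 16000 UMIs. At 2000 to 4000 UMIs only 11 sg-Ctrl cells were present, and their median UMIs, 3606, exceeded the 2894.5 of the Cyp51-KO cells, so this bin did not compare like cells. From 16000 UMIs upward the order turned, with 5018 genes in 6 Cyp51-KO cells and 4302 genes in 25 sg-Ctrl cells. Median UMIs were unlike there too, at 24376.5 and 20558.

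A curve of log2 genes on log2 UMIs, fitted over the 3 NK clusters with each cluster and group weighted equally, used the cells of all bins. The median residual of activated cells was -0.020 in Cyp51-KO tumors (-0.039 to -0.0065), just below the curve, against 0.074 in sg-Ctrl tumors (0.061 to 0.086), above it. The difference of -0.094 (range -0.12 to -0.067) on the log2 scale corresponds to 0.937 times as many genes at the same number of UMIs, as a median over the cells. It was -0.096 (range -0.12 to -0.076) in Functional_NK_1 cells and -0.12 (range -0.15 to -0.067) in Functional_NK_2 cells. A median shift of the same sign was thus found in all 3 NK clusters, and whether its size differed between them was not tested. The shift was not uniform over UMIs. In Functional_NK_1 cells the log2 ratio of median genes was -0.015 at 1000 to 2000 UMIs and -0.26 at 2000 to 4000. The Cyp51-KO cells of the latter bin had fewer UMIs than its sg-Ctrl cells (medians 2790 against 3230). Its -0.26 therefore includes a difference in UMI counts and is no measure of the shift at equal UMIs. At 4000 to 8000 UMIs, where both groups had a median of 5567 UMIs, the log2 ratio was -0.16. The log2 ratio was -0.095 at 8000 to 16000 and 0.0026 from 16000 UMIs upward.

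**Figure D4:**
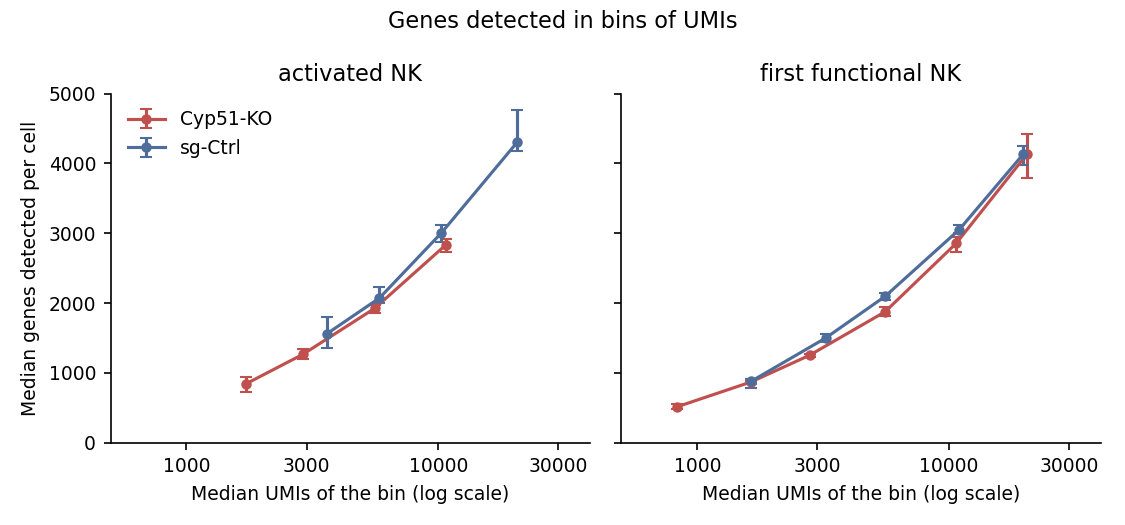
Median genes detected per cell (vertical axes) against the median UMIs of each bin on a log scale (horizontal axes) for activated NK cells (left) and first functional NK cells (Functional_NK_1, right) of Cyp51-KO (red) and sg-Ctrl (blue) tumors. Bars are exact 95% intervals, bins with fewer than 10 cells are not drawn, and at 4000 to 8000 UMIs the activated cells of Cyp51-KO tumors lie below those of sg-Ctrl tumors, at 1924 and 2073 genes.

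The fourth measure was the percentage of UMIs from genes of the mitochondrial genome, which encodes subunits of the respiratory chain and is used in single-cell data as a sign of cell stress or damage. In activated NK cells the median was 0.953% in Cyp51-KO tumors (0.910 to 1.01%), with the middle 50% of cells between 0.711% and 1.17%. It was 1.26% in sg-Ctrl tumors (1.20 to 1.34%), with the middle 50% between 0.993% and 1.52%. The difference of Cyp51-KO minus sg-Ctrl was -0.311 percentage points (range -0.434 to -0.188), and 251 of 313 Cyp51-KO cells (80.2%) lay below the sg-Ctrl median. Below 0.5% lay 20 Cyp51-KO cells (6.39%, 3.95 to 9.70%) and 3 sg-Ctrl cells (1.32%, 0.273 to 3.81%). The median number of mitochondrial UMIs per activated cell was 49 (44 to 54) and 97 (88 to 106).

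A lower mitochondrial percentage in Cyp51-KO tumors was found in 12 of the 13 lymphocyte clusters, the exception being plasma cells. Functional_NK_1 cells had 0.693% (0.671 to 0.716%) and 0.927% (0.886 to 0.963%), a difference of -0.234 percentage points (range -0.292 to -0.170). Functional_NK_2 cells had 0.792% (0.757 to 0.845%) and 0.932% (0.874 to 1.02%), a difference of -0.140 (range -0.260 to -0.0295). The range of activated NK cells overlapped both of these ranges.

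Activated NK cells had the highest mitochondrial percentage of the 3 NK clusters in both groups. They exceeded Functional_NK_1 cells by 0.260 percentage points (range 0.193 to 0.339) in Cyp51-KO tumors and by 0.337 (range 0.234 to 0.457) in sg-Ctrl tumors. They exceeded Functional_NK_2 cells by 0.161 (range 0.0649 to 0.253) and 0.332 (range 0.181 to 0.469). Functional_NK_1 has fewer UMIs per cell than the activated cluster and Functional_NK_2 has more, so the order by mitochondrial percentage was not the order by UMIs. Among the 13 lymphocyte clusters, activated NK cells ranked 3rd by mitochondrial percentage in both groups. Th1-like cells stood directly above them, at 1.23% (1.17 to 1.29%) and 1.46% (1.41 to 1.53%), with intervals apart from theirs. Directly below stood exhausted CD8+ T cells in Cyp51-KO tumors, at 0.926% (0.900 to 0.950%), and effector CD8+ T cells in sg-Ctrl tumors, at 1.24% (1.19 to 1.29%), both with intervals that overlapped theirs.

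**Figure D5:**
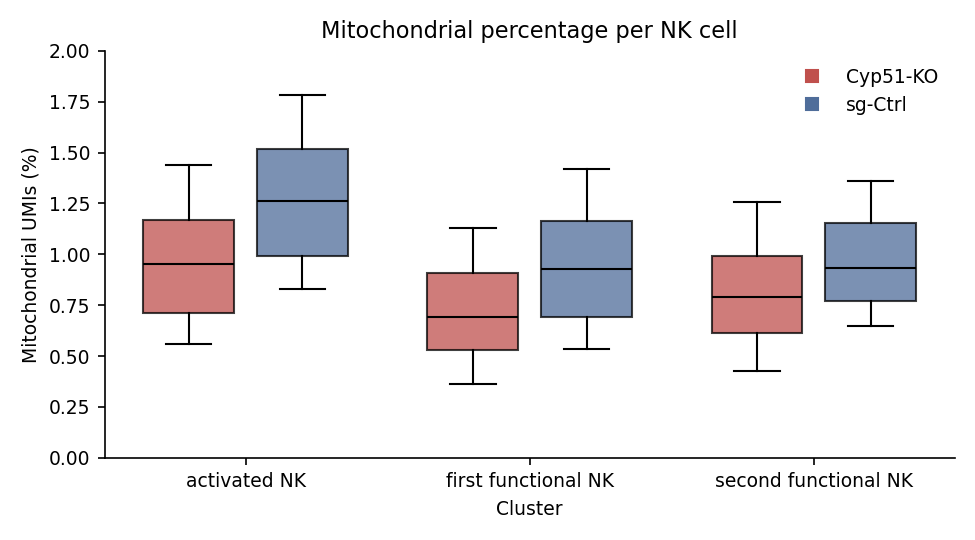
Mitochondrial UMIs in percent of all UMIs of a cell (vertical axis) in the 3 NK clusters of Cyp51-KO (red) and sg-Ctrl (blue) tumors, with boxes over the middle 50% of cells, a line at the median and whiskers at the 10th and 90th percentiles. Activated cells are the highest cluster in each group (medians 0.953% and 1.26%), and every cluster has its lower median in the Cyp51-KO group.

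The difference between the groups was also present among activated cells of like UMI counts. At 4000 to 8000 UMIs the medians were 0.953% (0.871 to 1.05%) in Cyp51-KO and 1.34% (1.23 to 1.42%) in sg-Ctrl tumors, a difference of -0.391 percentage points. At 8000 to 16000 UMIs they were 1.01% (0.917 to 1.07%) and 1.21% (1.17 to 1.34%), a difference of -0.198. The intervals lay apart in both bins. At 2000 to 4000 UMIs, a bin in which UMI counts were not alike, the medians were 0.926% (0.795 to 1.01%) in 94 Cyp51-KO cells and 1.44% (0.878 to 1.92%) in 11 sg-Ctrl cells, and the intervals overlapped. UMI counts were also unlike from 16000 UMIs upward. There the medians were 0.746% (0.247 to 1.13%) in 6 Cyp51-KO cells and 1.17% (0.970 to 1.29%) in 25 sg-Ctrl cells, with intervals that overlapped.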

How the data were processed

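Cells of Cyp51-KO and sg-Ctrl CT26 tumors were profiled with the 10x 5′ kit. Per the study's methods and the submitters' notes, reads were mapped by the authors in Cell Ranger 7.0 (GRCm38). The authors then filtered, merged, normalized (SCTransform, mitochondrial percentage regressed out) and clustered the cells in R 4.2.0 with Seurat 4.2.0. The deposited table has 1 line per cell, with raw UMI counts and detected genes, the mitochondrial percent computed by the authors, SCTransform-corrected totals (a normalized score made by the authors), group and cluster name. Total UMI counts per group were 156168274 (Cyp51-KO) and 95249095 (sg-Ctrl).

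Shares have exact (Clopper-Pearson) 95% binomial intervals and medians exact 95% intervals from the ordered cells. Ranges set opposite bounds against each other, and intervals called apart do not overlap. UMI bins had edges at 500, 1000, 2000, 4000, 8000, 16000 and 100000. Lymphocytes were 13 clusters, and CD45+ cells that are not T cells were the NK, B, plasma and myeloid clusters. Clusters named with values were the 3 NK clusters and the neighbours of activated NK cells in each ranking. Gene values are not in the table used here, so cells could not be thinned to 1 depth. The edgeR test of cell counts per library set for a table with libraries was not run. No doublet caller was run, and how the authors treated doublets was not given in the sources used here. The members, clusters and lists were chosen with earlier results of these data known. The computations were tested on simulated data, where the fit of genes on UMIs recovered the direction and slightly understated the size of a known shift. They used Python 3.11.15, NumPy 2.4.6, pandas 2.3.3, SciPy 1.17.1 and Matplotlib 3.10.9.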

Additional observations from a re-analysis of the deposited data

How the results depend on the processing

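Of 32 alternative values over 7 results, 30 stayed within the range of the value reported and 30 kept its direction. The log2 ratio of the share among lymphocytes, 0.27, became -0.081 over all cells, outside that range. That denominator also holds the epithelial clusters, at 24.6% of Cyp51-KO cells and 11.1% of sg-Ctrl cells. Over all immune cells and under 3 filters on UMIs and mitochondrial percentage the log2 ratio lay between 0.16 and 0.41. For median UMIs the log2 ratio, -0.65, became -0.17 with SCTransform-corrected totals, an alternative chosen after seeing the data that adjusts cells toward 1 depth by construction, and lay between -0.57 and -0.69 in the others. The log2 ratio of the share among CD45+ cells that are not T cells turned from -0.085 to 0.014 with at least 2000 UMIs. For the share among NK cells the log2 ratio, 0.13, was 0.34 with 5 UMI bins weighted equally, which gives full weight to the bin with 1 activated cell among 20 sg-Ctrl NK cells, and 0.22 without that bin, an alternative chosen after seeing the data. The other results kept their direction, with log2 ratios of median genes between -0.41 and -0.53, differences in mitochondrial percentage between -0.292 and -0.367 points, and differences in log2 genes at equal UMIs between -0.096 and -0.12. No paired analysis was possible because the table ties no cell to a library, and leaving out a library was not run for the same reason. Each group was treated as 1 pooled sample because no cell is tied to a library, so differences between mice, sorts and libraries cannot be separated here from the group. The ranges set opposite bounds of separate 95% intervals against each other, so they are wider than a 95% interval for the sampling of cells. They hold nothing of the spread between mice.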

Other observations

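Across single activated NK cells, UMIs and mitochondrial percentage were nearly unrelated in Cyp51-KO tumors (Spearman's rho 0.029, n = 313 cells) and weakly opposed in sg-Ctrl tumors (-0.20, n = 227 cells). In Functional_NK_1 cells the values were 0.21 and 0.042, and in Functional_NK_2 cells -0.18 and -0.16. Both measures of a cell come from the same library and share the UMI total, so these values describe the cells only.

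After the authors' SCTransform correction, activated NK cells had medians of 6573 UMIs in Cyp51-KO and 7372 UMIs in sg-Ctrl tumors, with 1809 and 2487 genes. The log2 ratio went from -0.65 to -0.17 for UMIs and from -0.47 to -0.46 for genes.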
